A study of Mus musculus with 6 samples.

Results

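The Argonaute and microRNA pathway genes described here are 10 protein-coding mouse genes, chosen by name from the 27179 rows of a table of read counts. They are Ago1, Ago2, Ago3 and Ago4, the Tnrc6 genes Tnrc6a, Tnrc6b and Tnrc6c, and the microRNA processing genes Dicer1, Drosha and Dgcr8. All 10 had a row in the table, and all 10 passed the filter on low counts that left 14199 genes to test. Ago4 passed only through the R783H libraries, since 1 of 3 wild-type (WT) libraries reached the filter's level against 3 of 3 R783H libraries.

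The libraries came from mouse embryonic stem cells of the ES-E14TG2a background that carry FLAG-tagged Trim71, and they hold poly(A) RNA. In 3 libraries Trim71 had the R783H amino-acid change and in 3 it was WT, so the tag and the background are shared by both groups. The cells grew on gelatin in 2i + Lif medium, which holds the MEK inhibitor PD0325901, the GSK3 inhibitor CHIR99021 and leukemia inhibitory factor. The labels do not say whether replicates A, B and C are clones, cultures or library preparations, so the tests measure the spread between these libraries, which may be technical.

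MicroRNAs are short RNAs that guide Argonaute proteins to messenger RNAs. The nuclear Microprocessor, made of the RNase Drosha and its RNA-binding partner Dgcr8, cuts a hairpin out of the primary transcript, and Dicer trims that hairpin to the mature duplex in the cytoplasm. An Argonaute protein keeps one strand as its guide and binds a Tnrc6 (GW182) protein, which recruits deadenylases that shorten and destabilize the target mRNA. Embryonic stem cells are known for the miR-290 family and for low levels of mature let-7, and Trim71 is itself a known let-7 target. Ago2 mRNA has been described as a target of Trim71 in these cells.

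The guides of both families are shown because their seed is what an Argonaute reads, and the capitals mark the seed, bases 2 to 8. The mature sequences are RefSeq's on GRCm38.p6. The mouse let-7a and let-7g share one seed, and miR-294 and miR-295 of the miR-290 cluster on chromosome 7 share another.
let-7a-5p: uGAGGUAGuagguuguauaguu
let-7g-5p: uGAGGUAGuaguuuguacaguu
miR-294-3p: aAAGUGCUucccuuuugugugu
miR-295-3p: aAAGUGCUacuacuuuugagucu

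Total counts ran from 20894277 to 25174121 in WT and from 27807385 to 29079670 in R783H, so each R783H library was the deeper. A floor of 3 counts corresponds to 0.0998 to 0.149 CPM (counts-per-million, scaled by TMM factors). Trim71 mRNA stood at 130.8, 131.2 and 159.4 CPM in WT A, B and C and at 151.7, 129.0 and 150.5 CPM in R783H A, B and C, without a call (log2 fold change 0.03, SE 0.08, adjusted p = 0.743, edgeR), and a count per gene does not show the amino-acid change. With an offset for transcript length and GC content it was called lower (-0.22, SE 0.07, adjusted p = 0.00851, edgeR). R783H B stood apart from its group, with a chi-square per degree of freedom of 11.3 and 12.3 against R783H A and C, where A against C gave 2.18. The 9 stem cell markers summed to 7411 to 7503 CPM in WT and 7250 to 7373 CPM in R783H (2 of 9 tested genes higher, 3 lower). Fibroblast markers summed to at most 3.71 CPM in any library. Markers of primitive endoderm summed to 4.36 to 6.63 CPM in WT and 8.81 to 9.72 CPM in R783H (2 of 4 tested genes higher), and those of mesoderm to 59.7 to 63.6 and 34.6 to 39.9 CPM (3 of 3 lower). Markers of primed epiblast summed to 216 to 219 CPM in WT and 187 to 197 CPM in R783H (1 of 3 tested genes higher, 2 lower). Neural markers summed to 92.0 to 96.6 and 59.6 to 67.4 CPM (1 of 2 tested genes higher, 1 lower). In these lists 1 gene alone reached up to 212 CPM (primed epiblast) and 87.7 CPM (neural), so the sums do not describe each marker. The part of these differences in the results that follow was not tested.

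Of the 10 genes, 7 rose in R783H, 2 fell and 1 was not called. A gene counts as called where its adjusted p is under 0.05 in edgeR's quasi-likelihood test, adjusted over the 14199 genes, and fold changes are R783H over WT. The 7 that rose were all 4 Argonaute genes, Tnrc6b, Tnrc6c and Dicer1, and the 2 that fell were Drosha and Dgcr8. Without Ago4, which only the R783H libraries brought past the filter, 6 of 9 were called higher and 2 lower. Among all tested genes 33.5% were called higher and 30.9% lower. A fit with an offset for transcript length and GC content, described further on, instead called 5 of the 10 genes higher and 4 lower. Without Ago4 that fit called 4 of 9 higher and 4 lower. The CPM ranges of R783H and WT were separate for 9 of the 10 genes, with Ago4 among the 9. Separate ranges were found for 68.1% of all tested genes. With all counts thinned to the shallowest library, 7 of the 10 were again called higher and 2 lower. The median log2 fold change was 0.43 over the 10 genes, 0.37 without Ago4 and 0.03 over all tested genes. Fewer cells with a transcript and less transcript per cell cannot be told apart in these bulk libraries.

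**Figure D1:**
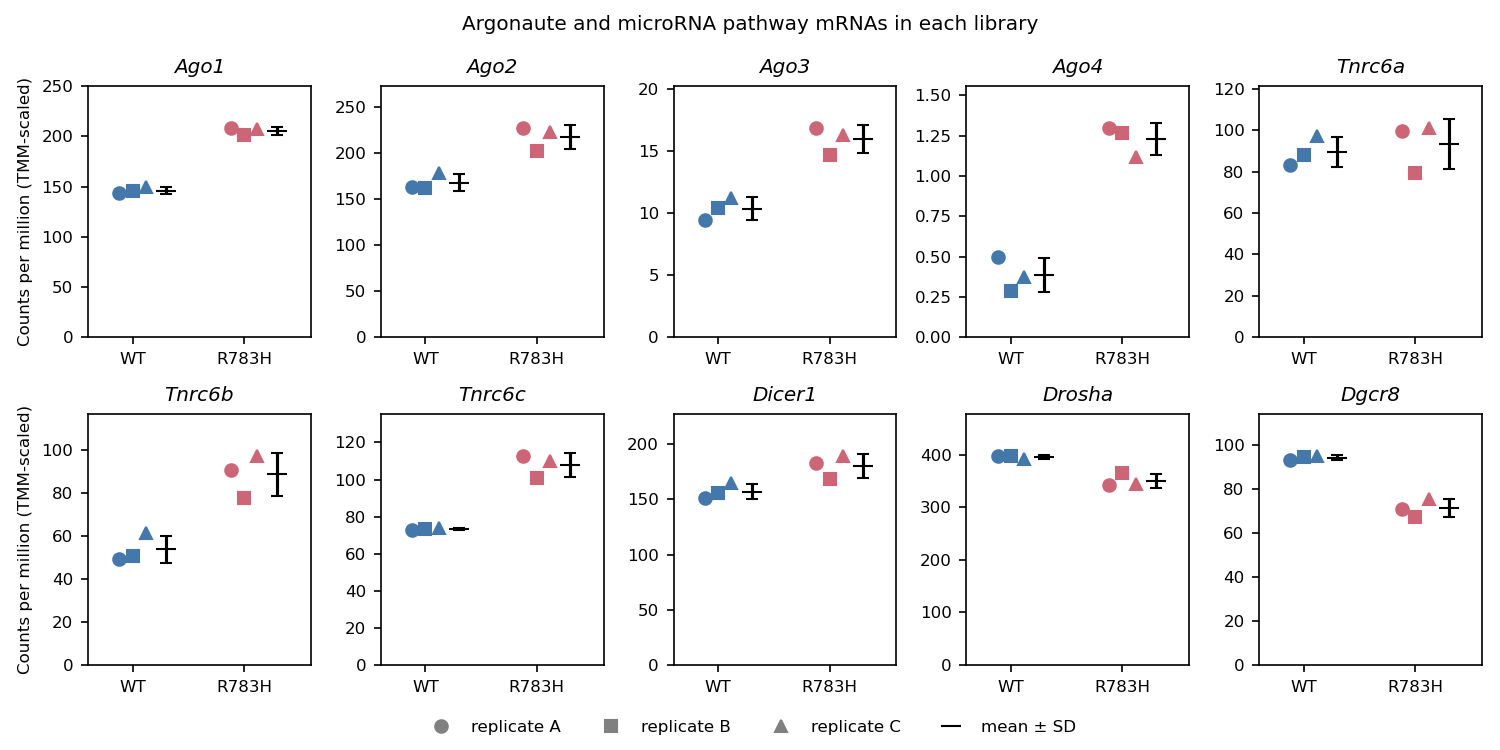
Level (CPM, linear axis from 0) of the 10 genes in each library, with WT in blue, R783H in red, a marker shape for each replicate letter, and the mean ± SD of the 3 libraries in black. The groups overlap in Tnrc6a alone; Drosha and Dgcr8 are lower in R783H and the other 7 genes are higher.

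Ago1 and Ago2 supplied nearly all Argonaute mRNA. Ago1 (Entrez 236511, chr4:126435012-126468707) stood at 143.2, 145.2 and 149.4 CPM in WT A, B and C and at 208.4, 201.0 and 207.3 CPM in R783H A, B and C. The 3 R783H libraries lay within 8 CPM of each other and well above every WT library. Its rise was 1.41-fold (log2 fold change 0.49, SE 0.04, adjusted p = 1.85e-06, edgeR), and 19.8% of all tested genes had a change at least as high. With the length and GC offset the log2 fold change was 0.29.

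Ago2 (Entrez 239528, chr15:73101625-73184947) encodes the Argonaute that can cut a fully paired target. It stood at 163.1, 162.1 and 177.9 CPM in WT A, B and C. In R783H A, B and C it was at 227.1, 201.8 and 222.6 CPM, where B was the lowest and still above WT C, the highest WT library. The rise was 1.30-fold (log2 fold change 0.37, SE 0.06, adjusted p = 1.45e-04, edgeR). The call was lost with the length and GC offset (log2 fold change 0.00272, adjusted p = 0.952, edgeR). That offset used the GENCODE transcript of 13800 nt, which runs past the end of the RefSeq gene. An offset with a shorter Ago2 length was not tested. Ago2 shares 219 nt of exon with the opposite-strand gene Chrac1, a chromatin remodelling subunit that fell by 0.28 on the log2 scale (SE 0.06, adjusted p = 0.00121, edgeR) on fewer counts, at most 676 in a library.

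Ago3 and Ago4 were scarce. Ago3 (Entrez 214150, chr4:126326994-126431670) rose 1.54-fold, from 9.46, 10.4 and 11.2 CPM in WT A, B and C to 16.9, 14.7 and 16.3 CPM in R783H A, B and C (log2 fold change 0.62, SE 0.09, adjusted p = 9.43e-05, edgeR), and was at 0.21 with the length and GC offset. Ago4 (Entrez 76850, chr4:126489487-126533586) was counted 10 times in WT A, 7 times in WT B and 8 times in WT C, against 39, 36 and 33 times in R783H A, B and C, without overlap. Its log2 fold change of 1.68 (SE 0.27, adjusted p = 2.28e-04, edgeR) was the largest of the 10 genes and rests on these few counts. Its mean was 0.385 ± 0.105 CPM in WT and 1.23 ± 0.0986 CPM in R783H (SD, n = 3 each).

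Ago3, Ago1 and Ago4 lie side by side on chromosome 4, between 126326994 and 126533586, and all 3 were called higher. Of these, Ago4 rests on few counts and passed the filter only through the R783H libraries. With the length and GC offset Ago1 was at 0.29 and Ago3 at 0.21, and the neighbours below are given without that offset. Whether the shared place bears on these changes was not tested. The 8 nearest tested genes around this cluster, 4 on each side, did not rise, with log2 fold changes from -0.39 to 0.01. Of them Map7d1, Trappc3 and Psmb2 were called lower. The next gene on one side, Adprhl2, changed by -0.16 (SE 0.09, adjusted p = 0.147, edgeR), and the next on the other, Clspn, by -0.11 (SE 0.06, adjusted p = 0.105, edgeR).

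Levels of different genes can be compared only per length, so CPM was divided by the kilobases of annotated exon. The 4 Argonaute genes summed to 30.6 ± 1.05 CPM per kilobase in WT and 41.9 ± 1.52 in R783H (SD, n = 3 each), and the ranges, 29.9 to 31.8 and 40.2 to 43.1, did not overlap. These sums carry no length and GC offset, with which the log2 fold change was 0.29 for Ago1 and 0.00272 for Ago2. Ago1 made up 58.7% ± 0.800 of this sum in WT and 60.4% ± 1.03 in R783H. Ago2 made up 39.0% ± 0.748 in WT and 36.9% ± 0.971 in R783H, and its ranges, 38.4% to 39.9% and 35.8% to 37.6%, were separate. Ago3 gave 2.04% and 2.30% and Ago4 0.181% and 0.422%. By this length the order Ago1, Ago2, Ago3, Ago4 was the same in both groups, with no overlap between neighbours in the family. The GENCODE exons of Ago2, used here, run past the end of the RefSeq gene. The order of Ago1 and Ago2 and their shares may differ with another annotation, which was not tested.

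The Tnrc6 genes, whose proteins link Argonaute to the deadenylases, did not move as one. Tnrc6b (Entrez 213988, chr15:80711313-80941086) stood at 49.5, 50.6 and 61.1 CPM in WT A, B and C and at 90.9, 77.5 and 97.3 CPM in R783H A, B and C. The lowest R783H library, B, lay above the highest WT library, C. The rise was 1.65-fold (log2 fold change 0.72, SE 0.09, adjusted p = 4.75e-05, edgeR), and the log2 fold change was 0.30 with the length and GC offset.

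Tnrc6c (Entrez 217351, chr11:117653703-117763439) was the tightest of the family in WT, at 72.7, 73.5 and 73.9 CPM in A, B and C. In R783H A, B and C it stood at 112.9, 100.8 and 110.0 CPM, clear of WT. The rise was 1.47-fold (log2 fold change 0.56, SE 0.05, adjusted p = 3.96e-06, edgeR), and the log2 fold change was 0.23 with the offset.

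Tnrc6a (Entrez 233833, chr7:123031101-123195296) was not called. It stood at 83.2, 88.2 and 97.4 CPM in WT A, B and C and at 99.8, 79.4 and 101.2 CPM in R783H A, B and C, so R783H B lay below every WT library while A and C lay above. The log2 fold change was 0.06 (SE 0.09, adjusted p = 0.564, edgeR). Without R783H B it was 0.14 with an adjusted p of 0.0272 (edgeR), and without R783H A or R783H C it was -0.00288 and -0.0108. The length and GC offset gave -0.19, a call as lower.

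The makeup of the Tnrc6 mRNA pool differed between the groups. The shares below carry no length and GC offset, with which the log2 fold change was 0.30 for Tnrc6b, 0.23 for Tnrc6c and -0.19 for Tnrc6a. Tnrc6a gave 46.9% ± 1.06 of the summed CPM per kilobase in WT and 37.6% ± 1.44 in R783H (SD, n = 3 each). Tnrc6c gave 38.1% ± 1.90 in WT and 43.2% ± 1.86 in R783H, and Tnrc6b 15.1% ± 0.930 and 19.2% ± 0.652. In WT each library had more Tnrc6a than Tnrc6c per kilobase, with a Tnrc6c to Tnrc6a ratio of 0.750 to 0.864. In R783H the ratio was 1.07 to 1.26, so that the order was the opposite in each library. The group means had these same orders with the longest coding transcript as the length of each gene.

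**Figure D2:**
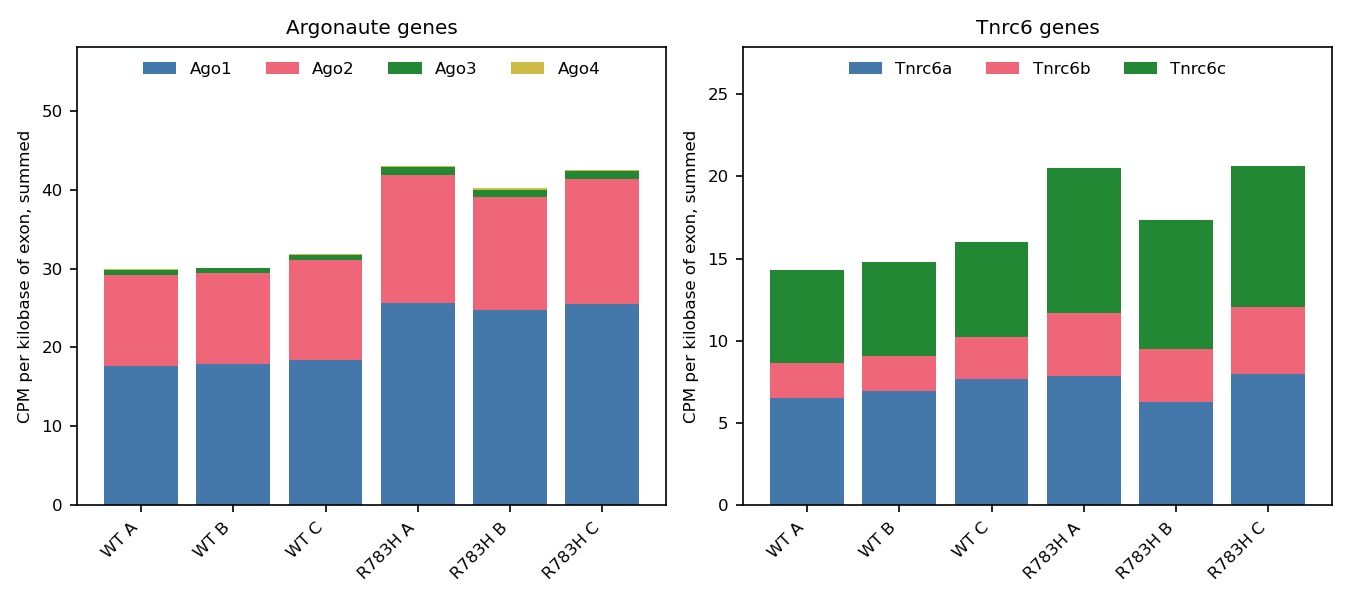
Stacked CPM per kilobase of exon of the 4 Argonaute genes (left) and the 3 Tnrc6 genes (right) in each of the 6 libraries, without the length and GC offset. The Argonaute sum was 29.9 to 31.8 in WT and 40.2 to 43.1 in R783H, with Ago1 and Ago2 filling nearly all of each bar; in the Tnrc6 bars the Tnrc6b and Tnrc6c segments are taller in R783H.

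As fitted, Dicer1 was called higher and both genes of the Microprocessor lower, while all 3 were called lower with the length and GC offset. Dicer1 (Entrez 192119, chr12:104687740-104751968), the cytoplasmic RNase, stood at 151.0, 155.5 and 164.5 CPM in WT A, B and C and at 182.5, 168.5 and 189.6 CPM in R783H A, B and C. The gap between the groups was narrow, since R783H B was 168.5 CPM against 164.5 CPM in WT C. The rise was 1.15-fold (log2 fold change 0.20, SE 0.05, adjusted p = 0.00708, edgeR). With the length and GC offset the direction turned, to -0.10 (adjusted p = 0.0145, edgeR).

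Drosha (Entrez 14000, chr15:12824804-12935291), the nuclear RNase, had the highest level of the 10 genes. It stood at 398.0, 396.4 and 391.6 CPM in WT A, B and C and at 342.1, 364.3 and 343.1 CPM in R783H A, B and C. All R783H libraries were below all WT libraries, and R783H B was the closest to WT. It fell by 0.18 on the log2 scale (SE 0.04, adjusted p = 0.00305, edgeR), to 0.885 times the WT level.

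Dgcr8 (Entrez 94223, chr16:18253948-18289251), the partner of Drosha, fell further. It stood at 93.2, 94.4 and 95.1 CPM in WT A, B and C and at 70.97, 67.3 and 75.4 CPM in R783H A, B and C. It fell by 0.40 on the log2 scale (SE 0.05, adjusted p = 4.03e-05, edgeR), to 0.756 times the WT level. Dgcr8 shares 825 nt of exon with the opposite-strand gene Trmt2a, a tRNA methyltransferase that fell by 0.73 on the log2 scale (SE 0.05, adjusted p = 7.78e-07, edgeR). Since the sources used here do not say whether counting used strand, the part of Trmt2a reads in the Dgcr8 count was not tested. A further 327 nt is shared with the same-strand gene Gm49776, and 309 nt of the transcript has a copy of 99.0% identity in Gm43555.

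Per kilobase of exon, Drosha stood first in both groups, at 66.6 ± 0.565 CPM per kilobase in WT and 58.9 ± 2.12 in R783H (SD, n = 3 each). Ago1 came next, at 17.97 ± 0.393 and 25.3 ± 0.493. In WT they were followed by Dgcr8 (12.2), Ago2 (11.95), Dicer1 (9.37), Tnrc6a (7.05), Tnrc6c (5.71), Tnrc6b (2.27), Ago3 (0.626) and Ago4 (0.0554), where Dgcr8 and Ago2 overlapped and no other neighbours did. In R783H the order after Ago1 was Ago2 (15.5), Dicer1 (10.8), Dgcr8 (9.25), Tnrc6c (8.40), Tnrc6a (7.36), Tnrc6b (3.74), Ago3 (0.965) and Ago4 (0.177), with overlap of Dgcr8 with Tnrc6c and of Tnrc6c with Tnrc6a. The first place of Drosha and the last 3 places held with the longest coding transcript as the length, while the middle of the order did not: Dgcr8 then stood second in WT, at 21.8 against 20.2 for Ago1. That length was chosen after the data had been seen. With either length the place of Ago2 rests on GENCODE exons that run past the end of the RefSeq gene.

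Fold changes in this comparison followed transcript length, and these are long genes. Across the 13064 tested genes with an annotated length, Spearman's rho between length and log2 fold change was 0.256, which is a description across genes that are not independent replicates. All 10 genes are longer than the median tested gene of 3364 nt. By the longest annotated transcript, Tnrc6b (17332 nt), Ago3 (15595), Ago2 (13800), Tnrc6c (11590), Dicer1 (9851), Tnrc6a (8183) and Ago1 (7227) fall in the longest 10% of tested genes. Ago4 (6537 nt) falls in the ninth length decile, Drosha (4570) in the eighth and Dgcr8 (4320) in the seventh. The 4 Argonaute genes have coding regions of almost equal size, 2574 to 2586 nt, and their lengths differ through the 3′ UTR, which takes up 81.7% of the Ago3 transcript, 80.2% of Ago2, 62.1% of Ago1 and 56.3% of Ago4. Drosha has the shortest 3′ UTR of the 10 genes, at 168 nt.

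Within the longest 10% of tested genes, 59.9% were called higher, 13.2% were called lower and the median log2 fold change was 0.31. Of the 7 pathway genes in that decile, 6 were called higher and 0 lower, and Ago2 at 0.37 lay close to the decile's median, while Dicer1 (0.20) and Tnrc6a (0.06) lay below it. Ago3, Tnrc6b, Tnrc6c and Ago1 lay above it, as did Ago4 in the ninth decile, whose median was 0.19. Drosha and Dgcr8 fell although the median of their deciles was 0.11 and 0.07, and 24.6% and 29.3% of the genes there were called lower.

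**Figure D3:**
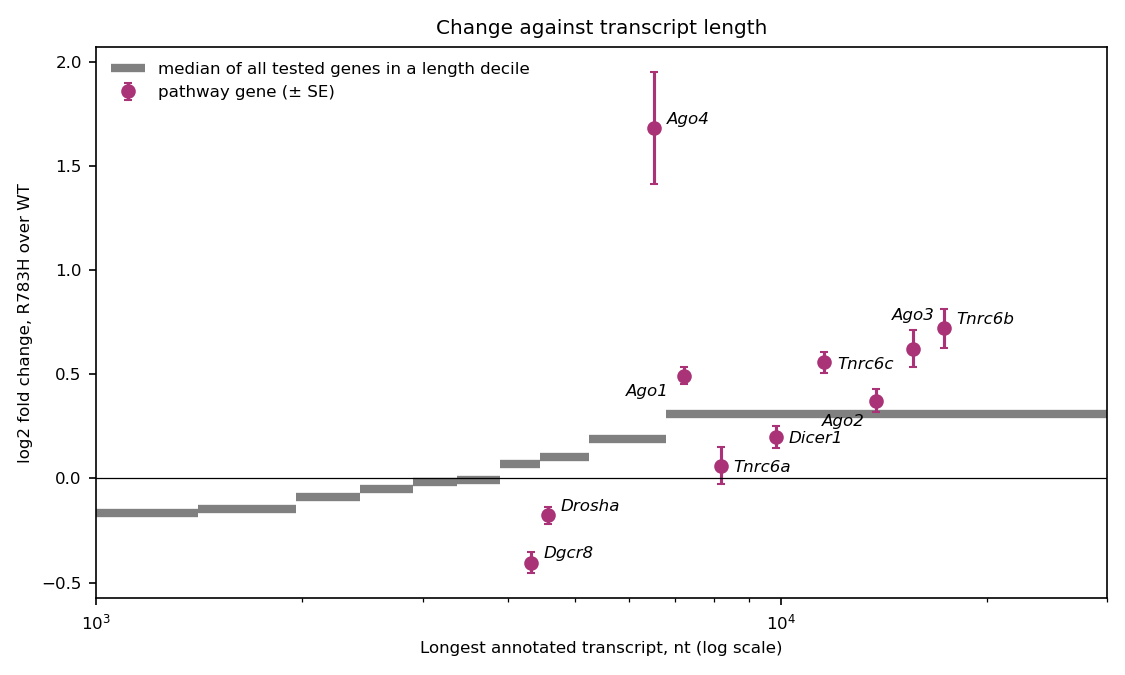
Log2 fold change of R783H over WT (± SE) of the 10 genes against the length of the longest annotated transcript (log axis, in nt), with grey bars for the median of all tested genes in each length decile; the first and last bars run past the axis. Drosha and Dgcr8 lie below the bar of their decile, Dicer1 and Tnrc6a below that of the longest 10%, and Ago2 close to it.

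The fit with an offset for transcript length and GC content, which reduces the trend, changed the account of 3 genes. With the offset, 32.1% of the shortest 10% of genes were called higher and 40.4% of the longest 10%. Without it these were 17.7% and 59.9%. In the longest 10%, 29.2% were called lower with the offset. With it, 5 of the 10 genes were called higher, 4 lower and 1 was not called, where 35.6% of the 13064 genes were called higher and 33.1% lower. Without Ago4, which only the R783H libraries brought past the filter, 4 of 9 were called higher and 4 lower. Ago1 (0.29, SE 0.03), Ago3 (0.21, SE 0.07), Ago4 (1.499, SE 0.29), Tnrc6b (0.30, SE 0.06) and Tnrc6c (0.23, SE 0.04) were still called higher, at smaller changes. Drosha (-0.23, SE 0.03) and Dgcr8 (-0.45, SE 0.04) were still called lower. Ago2, whose GENCODE length runs past the RefSeq gene, was no longer called. Dicer1 (-0.10, SE 0.03) and Tnrc6a (-0.19, SE 0.06, adjusted p = 0.0107, edgeR) were called lower. The median of the 10 genes, Ago4 included, moved from 0.43 to 0.11. Whether the trend with length arose in the cells or in the libraries was not tested.

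**Figure D4:**
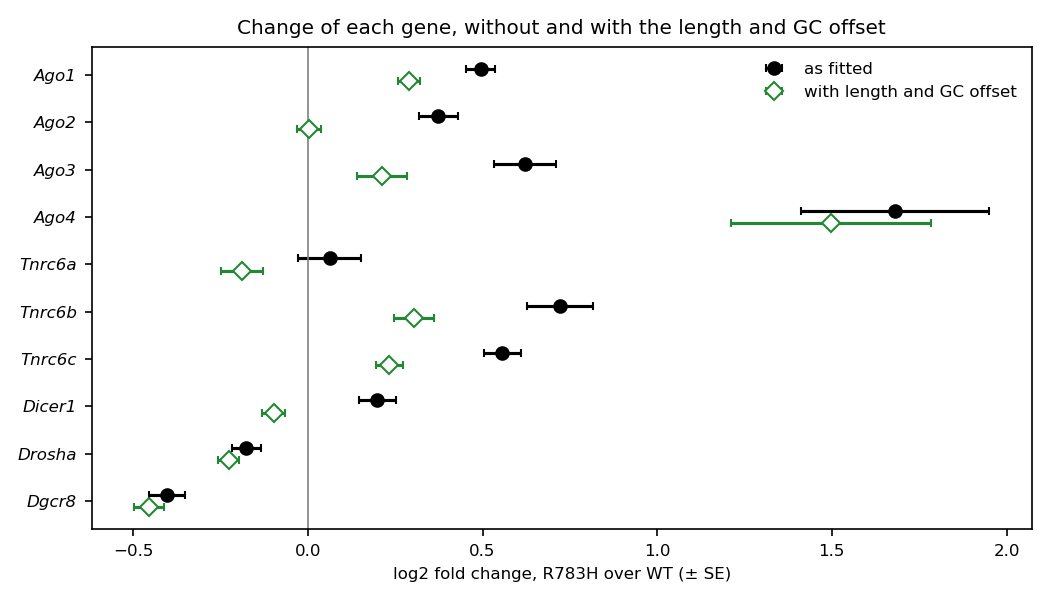
Log2 fold change of R783H over WT (± SE) of each of the 10 genes as fitted (filled circles) and with the length and GC offset (open diamonds). Ago2 moves to 0, Dicer1 and Tnrc6a move below it, and the other 7 genes keep their side.

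Matches to the 2 seeds were then counted in the 3′ UTR of each gene's longest coding transcript, as a description of the sequence and not of binding. The let-7 match, CTACCTC, occurs in 11.05% of 12806 tested genes with a 3′ UTR, and the miR-290 match, AGCACTT, in 17.6%; both were searched on the transcript strand. Ago2 has 3 let-7 matches, or 0.271 per kilobase against 0.0767 over all these 3′ UTRs, and no miR-290 match. They are printed since Ago2 holds most of the let-7 matches found, with the match in capitals and the positions of the 7 bases on GRCm38, minus strand, from the GENCODE M21 transcript. The first lies inside the RefSeq gene and the other two beyond its end.
Ago2 chr15:73101725-73101731: ataaaagCTACCTCtgacttc
Ago2 chr15:73100041-73100047: ctctgtcCTACCTCcaggcac
Ago2 chr15:73097983-73097989: tgtggatCTACCTCagttaaa

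Ago3 has the most miR-290 matches, which are printed in the same way and lie on the minus strand inside the RefSeq gene.
Ago3 chr4:126341692-126341698: cggtgtgAGCACTTggagccc
Ago3 chr4:126338312-126338318: taattgcAGCACTTaagaggc
Ago3 chr4:126335516-126335522: tgttaagAGCACTTattgtgc

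In all Ago3 has 1 let-7 match and 3 miR-290 matches, Tnrc6b 2 miR-290 matches and Tnrc6c 1. No match to either seed was found in these windows of Ago1, Ago4, Tnrc6a, Dicer1, Drosha or Dgcr8. The members with matches have some of the longest 3′ UTRs, 11064 nt in Ago2, 12742 nt in Ago3 and 11609 nt in Tnrc6b, although Tnrc6c has 2588 nt. Per kilobase, miR-290 matches stood at 0.386 in Tnrc6c, 0.235 in Ago3 and 0.172 in Tnrc6b, against 0.131 over all tested 3′ UTRs. The let-7 match of Ago3 stood at 0.0785 per kilobase against 0.0767.

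The other genes of the pathway were read from lists taken from general knowledge, and a count in each list is set against the 33.5% of all tested genes called higher and the 30.9% called lower. Nuclear partners of the Microprocessor and the export factors mostly fell with Drosha and Dgcr8. Of 11 such genes 9 were called lower and 1 higher, with a median log2 fold change of -0.50. Srrt (Ars2), which links cap-binding proteins to primary microRNA processing, went from 445 ± 5.45 to 238 ± 6.06 CPM (-0.90, SE 0.04), the largest change in the list. Erh, a Microprocessor cofactor, fell by 0.66 (SE 0.05) and Safb2 by 0.53 (SE 0.05). Ran, the GTPase of nuclear export, fell by 0.50 (SE 0.05), and Xpo5, which carries the hairpins out of the nucleus, fell by 0.16 (SE 0.05). Ddx17 rose by 0.29 (SE 0.04), while its paralog Ddx5 fell by 0.43 (SE 0.05). The last 4 were named after their values had been seen.

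The 3 partners of Dicer differed from each other. Tarbp2 (TRBP), which binds Dicer and helps load Argonaute, went from 56.8 ± 4.21 to 34.5 ± 1.05 CPM (-0.72, SE 0.06, adjusted p = 2.22e-06, edgeR). Prkra (PACT) rose from 11.6 ± 1.32 to 14.3 ± 1.44 CPM (0.30, SE 0.10, adjusted p = 0.0249, edgeR). Adar, which edits double-stranded RNA, was at -0.02 (SE 0.04) and not called, but was called lower with the length and GC offset (-0.14, adjusted p = 0.00265, edgeR).

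Of the 6 chaperones that load small RNA duplexes into Argonaute, 4 were called lower, 0 were called higher and the median was -0.39. The immunophilin Fkbp4 fell by 0.63 (SE 0.05), the Hsp90 cochaperone Ptges3 by 0.54 (SE 0.07) and the Hsp70 cochaperone Dnaja2 by 0.54 (SE 0.04). None of the 6 was called higher with the length and GC offset either, where 5 were called lower.

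Among 13 cofactors and regulators of Argonaute, 5 were called higher, 3 were called lower and the median was 0.03. Zswim8, the ubiquitin ligase adaptor that marks Argonaute for decay when its guide pairs extensively with a target, rose from 26.2 ± 1.57 to 64.1 ± 0.863 CPM (1.29, SE 0.06, adjusted p = 3.93e-08, edgeR). The helicase Mov10 rose from 164.8 ± 4.84 to 279.5 ± 21.9 CPM (0.76, SE 0.06), and Eif4e2 (4EHP), a cap-binding repressor, fell by 0.45 (SE 0.04).

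The deadenylation and decapping effectors that act after Tnrc6 went both ways, with 9 of 21 called higher, 5 called lower and 0.02 as the median. Dcp1b rose from 1.96 ± 0.0340 to 4.44 ± 0.215 CPM (1.18, SE 0.13), the exonuclease Xrn1 rose by 0.60 (SE 0.08) and the deadenylase Cnot6l by 0.57 (SE 0.09). Of the same 21 genes, 7 were called higher and 10 lower in the fit with the length and GC offset.

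Of 7 genes of microRNA tailing and turnover, 4 were called higher, 2 were called lower and the median was 0.18. Lin28a, which blocks let-7 maturation, went from 376 ± 1.34 to 174 ± 2.60 CPM (-1.11, SE 0.04, adjusted p = 1.19e-08, edgeR), and Lin28b fell by 0.39 (SE 0.11; named after its value had been seen). The uridylyltransferase Tut7, which acts with Lin28 on let-7 precursors, rose by 0.66 (SE 0.08), and Dis3l2, the exonuclease that degrades uridylated precursors, rose by 0.61 (SE 0.06).

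Primary microRNA transcripts were measured only where they are polyadenylated and counted. Of 5 tested host transcripts 2 were called higher, 2 were called lower and the median was 0.22. AU018091, the gene at the miR-290 cluster, rose from 162 ± 7.62 to 217.6 ± 9.67 CPM (0.42, SE 0.05). Mirg, a host of the Dlk1-Dio3 microRNAs, rose from 3.48 ± 0.674 to 9.56 ± 0.891 CPM (1.47, SE 0.14), and Mir17hg, host of the miR-17 cluster, changed by -0.51 (SE 0.12, adjusted p = 0.00304, edgeR). The table also has 643 rows for microRNA genes, of which 15 passed the filter, 5 called higher and 3 lower. Mir363 and Mir7-1, called higher, and Mir3091, called lower, were brought past it by the group where they are high, and so was Mir25, which was not called. Of the 11 rows that passed in both groups, 3 were called higher and 2 lower; these genes were named after their values had been seen. Mir703 (0.89, SE 0.16) and Mir196a-1 (1.01, SE 0.23) were higher and Mir1949 (-1.81, SE 0.20) lower, at no more than 10.3 CPM on average in either group. Poly(A) libraries do not capture mature microRNAs, so these rows say nothing on mature levels.

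Of 11 mRNAs described as targets of the miR-290 and miR-302 family, 7 were called higher, 0 were called lower and the median was 0.27. One of the 7, Irf2, had at most 12 counts in a library and was brought past the filter by the R783H libraries alone; it was named after its values had been seen. Without it 6 of 10 were called higher and 0 lower, also with the length and GC offset, and the median was 0.24. The cell-cycle inhibitor Cdkn1a rose from 144 ± 2.36 to 204 ± 10.8 CPM (0.50, SE 0.05), the pocket protein Rbl2 from 8.30 ± 0.610 to 14.1 ± 0.898 CPM (0.76, SE 0.09) and the Hippo kinase Lats2 from 7.55 ± 1.07 to 11.3 ± 0.375 CPM (0.57, SE 0.10). Cdkn1a has also been described as a target of Trim71 itself.

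**Figure D5:**
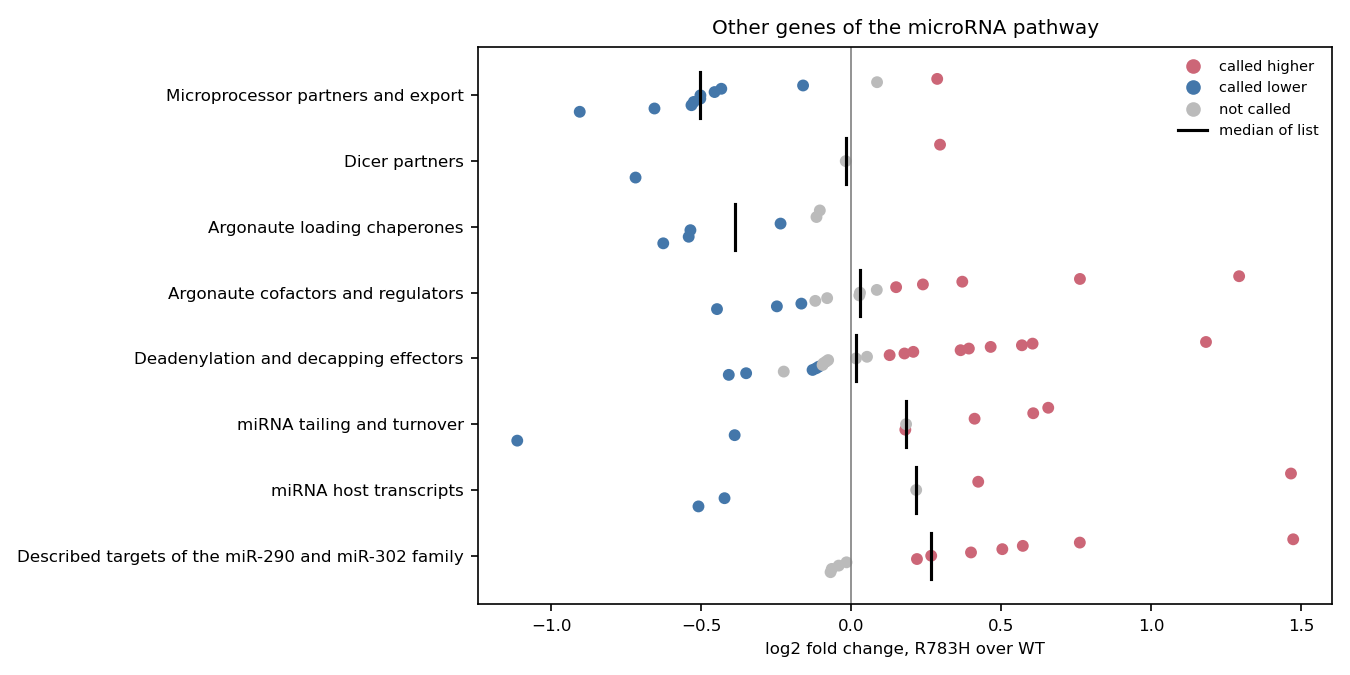
Log2 fold change of R783H over WT of each tested gene in 8 lists of the microRNA pathway, coloured by call (red higher, blue lower, grey not called), with the list median as a black line. The Microprocessor partners and the chaperones lie mostly below 0, with medians of -0.50 and -0.39, and the other lists hold calls on both sides except the miR-290 and miR-302 targets, where none is called lower.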

How the data were processed

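Poly(A) RNA of 3 R783H and 3 WT libraries was compared. The authors deposited whole-number counts per Entrez gene, with no normalization and 1 column per library; 0 columns were left unassigned. Per the submitters' processing notes the tools were CASAVA 1.4, HISAT2 and SAMtools and the build was mm10; the counting tool, annotation and use of strand are not given in the sources used here. Symbols and positions are RefSeq's on GRCm38.p6 (25275 of 27179 rows matched), and lengths, UTRs and exon overlaps are GENCODE M21's. Near-identical copies were sought with BLAST at 98% identity over at least 100 nt.

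The fits were run in R 4.3.3 (edgeR 4.0.16, DESeq2 1.42.0, limma 3.58.1). Low counts were removed by filterByExpr (minimum count 10, minimum total 15) and scaled by TMM. The model held group alone, and edgeR's quasi-likelihood test was adjusted by Benjamini-Hochberg across the 14199 genes. The SE is the fold change divided by the root of F. The common coefficient of variation was 5.45%. Intervals and floors from counts cover counting error only. The offset for length and GC came from natural splines (5 degrees of freedom each) of each library's deviation from the gene mean of log2 CPM (prior count 2), for 92.0% of tested genes. Steps were tested on simulated data.

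The members and the lists were chosen with earlier results of these data known. From each list up to 3 called genes with the largest change and at least 50 counts on average in the higher group are named; others carry a remark. Alternatives were other scalings (RLE, upper quartile, library size), other filters, DESeq2, limma-voom, a replicate block, the offset, equal depth and leaving out each library.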

Additional observations from a re-analysis of the deposited data

How the results depend on the processing

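Across 17 alternatives (16 for Ago4, which the filter of 10 counts in every library removes), Ago1, Ago3, Ago4, Tnrc6b, Tnrc6c, Drosha and Dgcr8 kept direction and call, with adjusted p values of at most 0.0481. That value belongs to Drosha, scaled by library size alone. The number of these 10 genes called lower was 2, and 4 with the length and GC offset, with or without the replicate block. With the offset Dicer1 was at -0.10 (-0.10 with the block) and Tnrc6a at -0.19 (-0.19), and Trim71 at -0.22 (-0.22), all called lower; Ago2 lost its call in both. Ago2 and Dicer1 kept theirs in every alternative without the offset. Tnrc6a ran from -0.0108 without R783H C and -0.00288 without R783H A to 0.14 without R783H B, where it was called. Among the fits that leave out 1 library, Trim71 ran from -0.0219 (R783H A left out) to 0.13 (WT C left out), and stood at -0.0121, -0.0172 and -0.0156 with R783H C, WT A or WT B left out. Apart from the offset, the cause of these shifts was not tested. No pairing by the letters shared by the groups was visible: deviations of same-letter libraries correlated at -0.07, 0.00682 and 0.0851. Those of different-letter libraries ran from -0.133 to 0.126. These values cannot tell whether a letter marks a shared culture or preparation, which was not tested. The replicate block alone gave 9260 called genes against 9152, and 7 of the 10 genes higher and 2 lower. Adar, not called as fitted, was called lower with the offset, which made 2 of the 3 Dicer partners lower. Ago4 rests on 7 to 10 counts in each WT library. Of the 643 microRNA rows, 436 were at 0 in every library and 15 could be tested.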
